A study of Homo sapiens with 29 samples.

Results

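Open chromatin was compared between WX-02-23 and DMSO in 22Rv1 cells carrying C258A-FOXA1, as 2 libraries against 2. These 4 are among 29 ATAC-seq libraries of the study. The assay inserts sequencing adapters with a transposase, which reaches DNA where nucleosomes leave it bare, and each library was deposited as its own list of peaks. The 4 lists were merged into 109435 regions on chromosomes 1 to 22, X and Y, and a list held a region when one of its peaks overlapped it by at least 1 bp. A region was called kept when all 4 lists held it, gained when both WX-02-23 lists and neither DMSO list held it, lost in the reverse case, and partial otherwise.

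22Rv1 is an established human prostate cancer line. FOXA1 is a forkhead pioneer factor: it binds its sites on nucleosomal DNA, helps to open them, and in luminal prostate cells prepares enhancers that the androgen receptor uses. WX-02-23 is an electrophilic stereoprobe that reacts with cysteine C258 of FOXA1, and C258A-FOXA1 has an alanine in place of that cysteine. Comparing a ligand in cells with and without its reactive residue is a common way to ask which of its effects pass through that residue.

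All 4 libraries came from engineered cells that overexpress Y36C-PHF5A, a mutant of a spliceosome subunit that blunts ligands of the spliceosome, and that carry a doxycycline (Dox)-inducible C258A-FOXA1. Dox was given in all 4. One group received DMSO at 0.1% and the other WX-02-23 at 20 µM, both for 3 h. Endogenous FOXA1, with its cysteine, is still present in these cells, the labels give no level of either form, and no C258A library without Dox was analysed here. The libraries used for comparison were parental 22Rv1 with DMSO, WX-02-23 or its stereoisomer WX-02-43 (20 µM), 3 each, and the line with Dox-inducible WT-FOXA1, also overexpressing Y36C-PHF5A and given Dox, with DMSO or WX-02-23, 2 each. Pladienolide B (PladB, 100 nM), a spliceosome ligand, and the WT-FOXA1 line without Dox served as further look-ups. The labels do not say whether replicates were separate cultures, so the spread between libraries may be technical. The peak names place the engineered lists in one processing folder and the parental lists in another, so these cells cannot be told apart from that split.

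WX-02-23 replicate 1 stood apart from the other 3 lists. DMSO 1 held 84260 peaks and DMSO 2 87171, whereas WX-02-23 1 held 76645 and WX-02-23 2 92658. Thus the DMSO lists lay between the WX-02-23 lists, and the means were 85716 ± 2058 and 84652 ± 11323 peaks (SD, n = 2 each). The background in reads per base, a relative measure of depth recovered from the deposited fold and p-values, was 0.75 and 0.866 in DMSO, 0.648 in WX-02-23 1 and 0.917 in WX-02-23 2. The sources used here give no read totals. Over the 29 lists this measure did not always go with list length: WT-FOXA1 WX-02-23 2, at 1.256, had the fewest peaks, 62832. Of the 4 lists compared, the shortest was also the shallowest by this measure. It had the narrowest peaks, with a median of 290 bp against 300 to 301 bp in the other 3. Kept, gained and lost regions were therefore also counted with the 4 lists cut to 76645 peaks, taking the most significant by the deposited −log10 p-value. That setting is called equal length below.

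Most of the open chromatin was found under both conditions. Kept regions numbered 59504, or 54.4% of all regions, against 2583 gained (2.36%), 2922 lost (2.67%) and 44426 partial regions (40.6%). At equal length the 97778 regions held 54683 kept (55.9%), 2652 gained (2.71%) and 2841 lost regions (2.91%). Gains and losses were thus near each other in number as deposited. At equal length the lists hold the same number of peaks, which draws both counts together by construction. Of the 71015 regions that both DMSO lists held, 83.8% were kept, and of the 66949 that both WX-02-23 lists held, 88.9% were kept. At equal length these shares were 85.7% and 87.8%. With 2 libraries against 2 no exact permutation test can reach 0.05, so these counts carry no test.

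The counts of gained and lost regions depend on having 2 lists on each side. Without WX-02-23 1 the gained regions rose to 11791, and without WX-02-23 2 they were 5603. Leaving out DMSO 1 or DMSO 2 gave 4618 or 5502 gained regions. The lost regions were 10335 without WX-02-23 2 and 4271 without WX-02-23 1, and 9037 and 7812 without DMSO 1 and DMSO 2. A region needs fewer matching lists in each of these settings, so the counts rise by construction, and the span shows how much each list sets. Kept regions moved less, from 61131 to 66914.

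**Figure D1:**
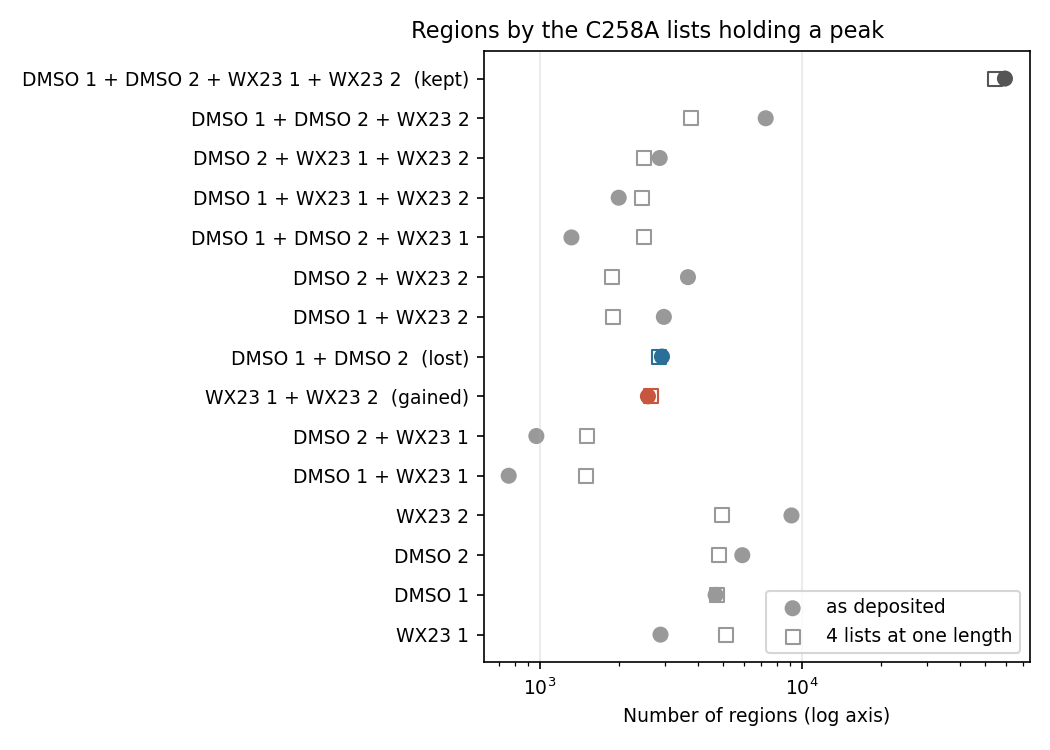
Number of regions (log axis) for each of the 15 combinations of the 4 C258A-FOXA1 lists, as deposited (filled circles) and with the lists at one length (open squares). Kept regions, at 59504 and 54683, exceed every other combination, and the 9117 regions held by WX23 2 alone shrink to 4948 at one length.

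The plot of regions by combination of lists shows where the length of a list matters. As deposited, 9117 regions had a peak in WX-02-23 2 alone and 2885 in WX-02-23 1 alone. At equal length these were 4948 and 5141, beside 4723 in DMSO 1 alone and 4817 in DMSO 2 alone, so no list then stood out. Regions held by 1 DMSO and 1 WX-02-23 list numbered 760 to 3672 for the 4 such pairs as deposited. The pairs with WX-02-23 2, at 2971 and 3672, exceeded both the gained and the lost count. At equal length the mixed pairs held 1493 to 1900 regions, below the 2652 gained and the 2841 lost regions.

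Sharing between pairs of lists was then compared. As deposited, the 2 DMSO lists shared 74.9% of the regions that either held, the 2 WX-02-23 lists 69.8%, and the mixed pairs 69.8% to 72.5%. The WX-02-23 replicates were thus no more alike than a treated and a control list. At equal length the DMSO pair shared 63782 of 85037 regions (75.005%), the WX-02-23 pair 72.9% and the mixed pairs 71.0% to 72.7%. Then both replicate pairs lay above all 4 mixed pairs, the WX-02-23 pair only narrowly.

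Membership of the small classes changed with the setting. Of the gained regions, 1606 (62.2%) were also gained at equal length, and of the lost regions 1540 (52.7%) were also lost. Cutting lists only removes peaks, so none could become a kept region. Of the kept regions, 91.9% stayed kept.

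Gained and lost regions were narrow. Kept regions had a median width of 445 bp (quartiles 341 and 637) and lost regions one of 246 bp (211 and 286), against 323 bp over all regions. The quartiles of the gained regions were 218 and 308 bp. Under 300 bp were 11.7% of kept, 71.2% of gained and 80.2% of lost regions. A width of 600 bp or more was found in 28.5% of kept, 0.310% of gained and 0.137% of lost regions. A kept region is the union of 4 peaks and a gained or lost one of only 2, which widens the kept class by construction. Single peaks showed the same order within each list: in DMSO 1 the median peak spanned 358 bp in kept and 194 bp in lost regions, and in WX-02-23 2 it spanned 371 bp in kept and 212 bp in gained regions. At equal length the median widths of kept, gained and lost regions were 462, 275 and 263 bp. The widest gained region, chr11:31136088-31136831 in build hg19, spanned 744 bp, and the widest lost one, chr5:75986663-75987409, spanned 747 bp. The widest kept region, chr6:58776492-58779370, spanned 2879 bp and had a peak in all 14 engineered libraries and in no parental library. Its fold enrichment was low for its rank, at 4.60 to 4.82 with percentiles of 87.3 to 89.4 in the 4 lists. Since engineered and parental lists came from separate processing folders, its absence from parental lists cannot be credited to the cells.

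**Figure D2:**
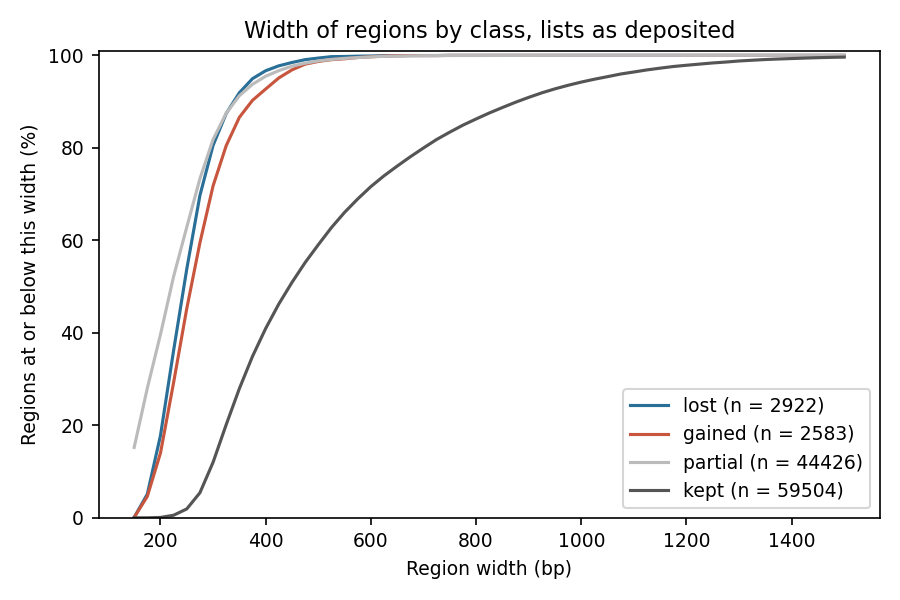
Cumulative share of regions (%) at or below each width (bp) for lost, gained, partial and kept regions of the 4 deposited C258A-FOXA1 lists. The partial curve rises first, with 39.7% at or below 200 bp against 14.0% of gained and 17.8% of lost regions. Under 300 bp are 71.2% of gained and 80.2% of lost regions, and the kept curve, at 11.7% there, lies far to the right.

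Gained and lost regions were also weak in the lists that held them. Each list was divided into 4 strength classes of 25% each by the authors' −log10 p-value, which ranks peaks within a list and does not compare lists. Of the lost regions, 67.7% lay in the weakest 25% of DMSO 1 and 63.0% in that of DMSO 2. Of the gained regions, 73.2% lay in the weakest 25% of WX-02-23 1 and 55.6% in that of WX-02-23 2. Kept regions were there in 7.02% to 15.5% of cases. In the strongest 25% were 0 and 1 of the lost regions in the 2 DMSO lists, and 2 and 3 of the gained regions in the WX-02-23 lists, against 31.8% to 38.6% of the kept regions. Presence itself depends on the p-value, so a strong region can hardly miss a list, and these shares are a description.

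**Figure D3:**
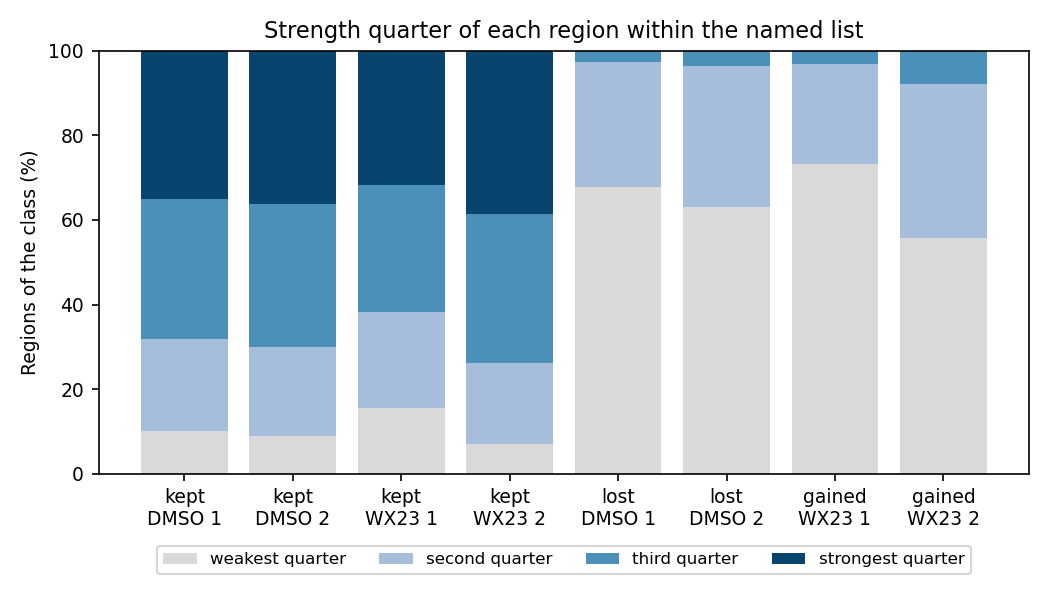
Share of regions (%) by strength class (25% each) of the named list, for kept regions in each of the 4 C258A-FOXA1 lists, lost regions in the DMSO lists and gained regions in the WX-02-23 lists. The weakest 25% takes 55.6% to 73.2% of gained and lost regions and 7.02% to 15.5% of kept regions.

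In median percentile of strength, where 100 is the strongest peak of a list, lost regions stood at 17.4 and 19.6 in the DMSO lists and gained regions at 15.0 and 21.3 in the WX-02-23 lists. Kept regions stood at 60.2 to 67.4. Regions of the partial class were much like the gained and lost ones, with 62.7% and 61.5% in the weakest 25% of the DMSO lists and 73.0% and 59.1% in that of the WX-02-23 lists. Partial regions had a median width of 221 bp. In width and strength the gained and lost regions thus lay near the regions that varied between replicates, and far from the kept ones.

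Most strong kept regions were strong under both conditions, while weaker ones were often ranked differently. At equal length, 16878 kept regions were in the strongest 25% of both DMSO lists, and 14919 of them (88.4%) were in the strongest 25% of both WX-02-23 lists. None of them fell to the weakest 25% of both, and 3 fell to the second. Of 2139 kept regions in the weakest 25% of both DMSO lists, 550 (25.7%) were again in the weakest of both WX-02-23 lists and 1 in the strongest. In the second 25% of both DMSO lists were 6187 kept regions and in the next stronger class 11669, of which 24.8% and 48.7% were in the same class of both WX-02-23 lists. The change in mean percentile from DMSO to WX-02-23 had a median of −0.13 points, quartiles of −5.35 and 4.62, and a range from −58.2 to 66.7 over 54683 regions. Ranking within lists of one length holds such a median near 0, so a change common to all regions would not show. Between single lists the median absolute difference was 5.63 points for the DMSO pair, 6.24 for the WX-02-23 pair and 6.55 over the mixed pairs. The typical difference between treatments was thus close to that between replicates.

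**Figure D4:**
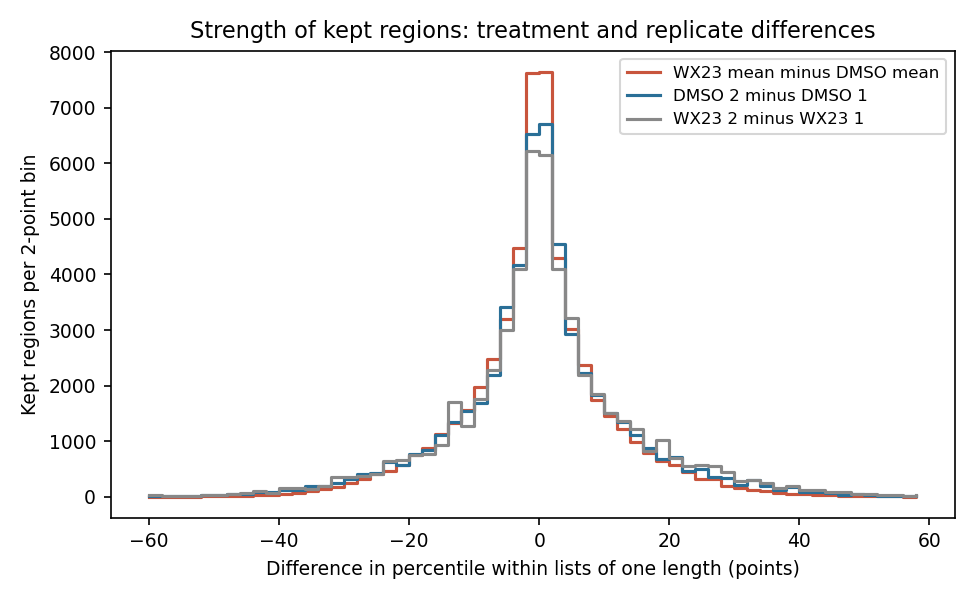
Kept regions per 2-point bin of the difference in strength percentile, with the 4 lists at one length: WX-02-23 mean minus DMSO mean, DMSO 2 minus DMSO 1, and WX-02-23 2 minus WX-02-23 1. All 3 curves centre near 0, where ranking within lists of one length tends to hold them. In the bin starting at 0 they hold 7645, 6715 and 6159 regions in that order. The difference of means averages 2 lists on each side, which narrows it against the single-list curves. The widths of the curves therefore do not compare like with like.

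Kept regions whose treated and control ranks did not overlap were counted next. Both WX-02-23 percentiles lay above both DMSO percentiles, by any amount, in 10091 kept regions (18.5%) and below them in 10682 (19.5%), and these counts carry no test. The mean difference was at least 10 points in 5313 of the risen (9.72% of kept regions) and in 5718 of the fallen ones (10.5%). Of these, the risen set went from a median percentile of 35.1 to 57.2 and the fallen set from 57.0 to 35.3. These regions were chosen for that difference, so it is a description. The sets were of like width, with medians of 394 and 387 bp. Without 1 library at a time the counts ran from 9157 to 10208 up and from 9273 to 10718 down, each setting having fewer lists to separate.

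The regions that rose and fell in rank were then followed in other cells, ranked within lists of one length per line. In parental cells, 3460 of the risen and 4162 of the fallen regions could be ranked in every list. The median percentile of the risen regions minus that of the fallen ones was −4.96, −5.67 and −4.77 points in the 3 DMSO libraries. It was 5.36, 6.08 and 4.87 points in the 3 WX-02-23 libraries, and −3.34, −3.66 and −3.24 in the 3 WX-02-43 libraries. The sign therefore differed between WX-02-23 and both other treatments in every library. In the WT-FOXA1 line, over 3122 and 3303 regions, the difference was −7.33 and −6.69 points with DMSO and 7.78 and 8.73 points with WX-02-23. This follow-up was added after the data were seen and carries no test.

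Kept regions also differed in covered width between lists. The median number of bases covered per kept region was 381 and 383 bp in the DMSO lists, 345 bp in WX-02-23 1 and 392 bp in WX-02-23 2. The WX-02-23 lists lay on both sides of the DMSO lists, as they did in length and depth. Both WX-02-23 lists were wider than both DMSO lists in 6014 kept regions (11.0%) and narrower in 12796 (23.4%). Taken alone, WX-02-23 1, the shallowest list, was narrower than both DMSO lists in 57.6% of kept regions and wider in 17.1%. WX-02-23 2 alone was narrower in 30.2% and wider in 37.3%, so the 2 treated lists leaned opposite ways. Summits stayed in place: the median distance between the summits of 2 lists was 27 bp for the DMSO pair, 29 bp for the WX-02-23 pair and 27 to 31 bp for the mixed pairs.

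Gained regions were unevenly spread over the genome. They made up 0.731% of the regions on chromosome 19, 0.949% on chromosome 22 and 1.41% on chromosome 17, against 3.20% on chromosome 18, 3.19% on chromosome 4 and 3.05% on chromosome 13. Chromosomes 19, 22 and 17 are gene-rich, and 18, 4 and 13 gene-poor. At equal length chromosomes 22 and 19 were again lowest, with 0.745% and 0.960%, and 13 and 18 highest, with 4.32% and 3.83%. Lost regions ranged less, from 2.10% on chromosome 13 to 3.27% on chromosome 20, and 0.909% (3 regions) on Y. Kept regions made up 67.6% of the regions on chromosome 19 and 49.2% of those on chromosome 18. Gained regions lay farther from stable open chromatin: 33.4% had a kept region within 10 kb, against 47.5% of lost regions and 43.0% of all regions. The median distance to the nearest kept region was 18.5 kb for gained, 11.1 kb for lost and 12.8 kb for all regions.

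The gained and lost regions were next looked up in libraries that had no part in choosing them. In parental cells, a peak was present at 41.9%, 47.0% and 44.0% of the gained regions with DMSO and at 61.1%, 59.6% and 59.6% with WX-02-23. Every WX-02-23 library lay above every DMSO library, and the difference was 15.8 points (SE 1.56). At the lost regions the shares were 61.2%, 66.0% and 62.3% with DMSO and 57.1%, 51.3% and 54.3% with WX-02-23. Here every WX-02-23 library lay below every DMSO library, with a difference of −8.92 points (SE 2.21). Regions gained or lost in the C258A-FOXA1 line thus moved the same way, on balance, in parental cells, whose FOXA1 has its cysteine. The parental lists did not differ in length by treatment beyond their spread, at 94298 ± 3449 and 95673 ± 1790 peaks (SD, n = 3 each).

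In the WT-FOXA1 line, a peak was present at 57.1% and 51.9% of the lost regions with DMSO and at 15.9% and 11.7% with WX-02-23, a difference of −40.7 points (SE 3.36) without overlap. The gained regions held a peak in 39.0% and 34.9% with DMSO and in 36.1% and 30.0% with WX-02-23, a difference of −3.95 points (SE 3.68), and these values overlapped. The WX-02-23 lists of that line were much shorter than its DMSO lists, at 65324 ± 3524 against 86575 ± 2214 peaks (SD, n = 2 each), and a shorter list can hold fewer regions. With the 10 looked-up lists at one length, the gained regions went from 14.2% ± 0.22 to 30.1% ± 0.25 (SD, n = 2 each) and the lost regions from 25.3% ± 1.5 to 12.3% ± 0.77 (SD, n = 2 each). The cut mostly shortened the DMSO lists. Their mean share fell from 37.0% to 14.2% at gained and from 54.5% to 25.3% at lost regions. With WX-02-23 it fell from 33.0% to 30.1% and from 13.8% to 12.3%. The rise at gained regions is thus relative to the other peaks of a list.

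Over both lines together, the mean difference at the lost regions was −24.8 points (SE 2.01). Permuting the treatment labels within line (exact, two-sided, 120 arrangements) gave p = 0.0167, the smallest possible, and 0.0667 with Benjamini-Hochberg adjustment for 4 look-up tests. At the gained regions it was 5.92 points (SE 2.00), with an exact permutation p of 0.117 and 0.156 after adjustment. With the looked-up lists at one length both passed 0.05 after adjustment: the gained regions changed by 15.6 points and the lost ones by −11.1 points, each with an exact permutation p of 0.0333 after adjustment. That setting compares shares among the strongest 62832 peaks of each list, and so only relative change. When the gained regions were chosen without DMSO 1 or without DMSO 2, the difference at them turned to −0.884 or −2.04 points. It was 0.266 or 2.00 points when they were chosen without WX-02-23 1 or 2, and 2.93 when chosen at equal length. The difference at the lost regions was −16.4 points when they were chosen without DMSO 1.

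An equal change in points at both classes cancels in the share of gained minus the share of lost regions of one library. A proportional change does not, since the shares with DMSO differ between the classes. The gained minus lost contrast was added after the data were seen. In parental cells it was −19.3, −19.0 and −18.3 points with DMSO and 4.05, 8.28 and 5.24 points with WX-02-23. In the WT-FOXA1 line it was −18.1 and −17.0 points with DMSO and 20.1 and 18.3 points with WX-02-23. All 5 WX-02-23 libraries were above 0 and all 5 DMSO libraries were below it. The mean difference of the lines was 30.7 points (SE 0.846; exact two-sided permutation, p = 0.0167, again the smallest possible), and 26.7 points with the looked-up lists at one length. It was 14.9 points when the regions were chosen without DMSO 2 and 15.6 without DMSO 1, with the same p.

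**Figure D5:**
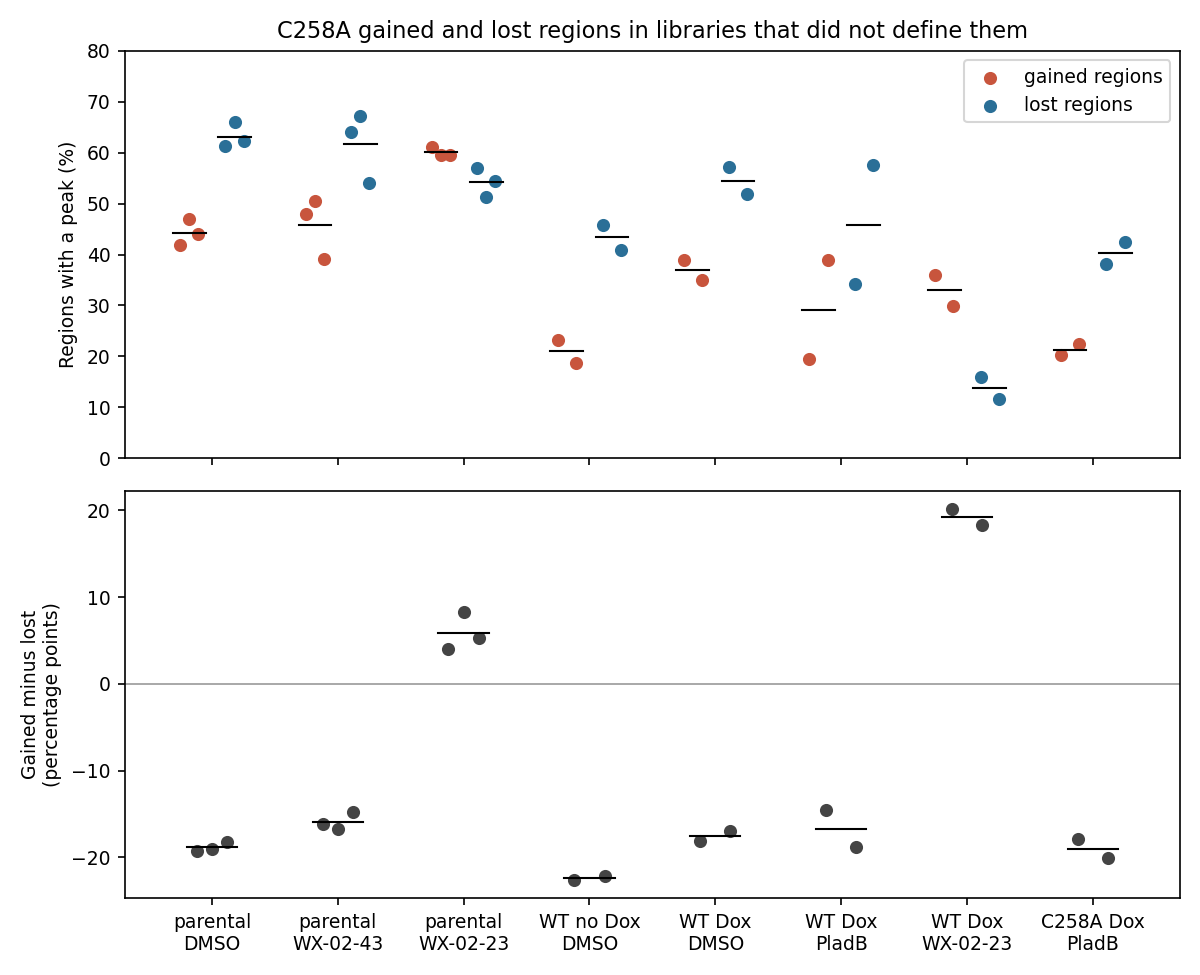
Upper panel: share (%) of C258A gained and lost regions with a peak in libraries that did not define them, without the parental PladB libraries, which are not drawn. Lower panel: gained minus lost share (percentage points). Points are libraries and bars group means. In the lower panel the 5 WX-02-23 libraries lie at 4.05 to 20.1 points and every other library drawn at −14.6 or lower.

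The stereoisomer was given to parental cells at the same dose and time as WX-02-23. With WX-02-43 a peak was present at 47.9%, 50.5% and 39.2% of the gained regions, below all 3 WX-02-23 libraries. The difference was 14.2 points (SE 3.46; exact two-sided permutation, p = 0.1, adjusted p = 0.156), and 3 libraries against 3 allow no lower p. The 9 differences between single libraries ran from 9.06 to 21.9 points, which is an exact 90% interval. At the lost regions the WX-02-43 libraries gave 64.0%, 67.2% and 54.0% and overlapped with WX-02-23. There the difference was −7.51 points (SE 4.33), with an exact permutation p of 0.3 and an exact 90% interval from −15.9 to 3.11 points, so neither a fall nor equality was shown. With these 6 lists at one length, the lost regions held a peak in 47.2%, 45.5% and 47.1% with WX-02-23 and in 55.4%, 57.2% and 54.0% with WX-02-43. The groups then did not overlap, and the difference was −8.93 points (exact permutation, adjusted p = 0.1), with an exact 90% interval from −11.7 to −6.81 points. Gained minus lost shares were −16.1, −16.7 and −14.8 points with WX-02-43. The difference from WX-02-23 in this contrast was 21.7 points (SE 1.39), again with an exact permutation p of 0.1. When the regions were chosen without 1 of the 4 C258A libraries, it was 12.96 to 14.7 points, and the difference at gained regions alone was 8.53 to 10.5 points, the lowest without WX-02-23 1.

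The gained minus lost share was negative in every PladB library. With 100 nM PladB, it was −18.4, −15.1 and −15.4 points in parental cells, −14.6 and −18.8 in the WT-FOXA1 line and −17.9 and −20.1 in the C258A-FOXA1 line itself. In the WT-FOXA1 line without Dox it was −22.6 and −22.1 points. The 2 C258A-FOXA1 PladB libraries held a peak in 20.2% and 22.5% of the gained regions, and in 38.1% and 42.5% of the lost ones. These differences from DMSO were not tested, and in the C258A-FOXA1 line the DMSO libraries helped to choose the regions.

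Set against the WT-FOXA1 line, the C258A-FOXA1 line lost fewer regions. WX-02-23 changed the mean number of peaks by −1064 in the C258A-FOXA1 line and by −21251 in the WT-FOXA1 line. The difference was 20187 peaks (SE 8653; exact two-sided permutation, p = 0.111, or 0.222 adjusted for 2 line tests), and 36 arrangements cannot reach 0.05. It was 28194 peaks without C258A WX-02-23 1 and 12181 without WX-02-23 2. The median peak width changed by −5.5 bp in the C258A-FOXA1 and −7.5 bp in the WT-FOXA1 line, a difference of 2 bp (exact permutation p of 1). As deposited, the WT-FOXA1 line had 12130 lost regions (11.7% of 103950), 1333 gained regions (1.28%) and 48674 kept regions (46.8%).

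With the 8 lists of both lines at 62832 peaks, the numbers moved closer. Lists of one length also draw the gained and lost counts of a line together by construction. The WT-FOXA1 line then had 3976 lost (4.80%), 3198 gained (3.86%) and 43142 kept regions (52.1%) of 82882. The C258A-FOXA1 line had 2320 lost (2.91%), 2094 gained (2.63%) and 45492 kept regions (57.1%) of 79731. Its gained and lost counts were lower, and this difference in counts was not tested. Of regions in both DMSO lists of the C258A-FOXA1 line, 20.9%, 4.18%, 0.202% and 0% were in neither WX-02-23 list, going from the weakest to the strongest 25% by mean percentile. The same shares were 29.1%, 9.90%, 1.29% and 0.0262% in the WT-FOXA1 line. By width, neither WX-02-23 list held 22.5% of C258A regions under 300 bp, 3.37% of those from 300 to under 600 bp and 0.141% of those of 600 bp or more, against 26.5%, 6.55% and 0.421% in the WT-FOXA1 line. The share was lower in the C258A-FOXA1 line in each of these classes.

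The reverse look-up asked how regions chosen in the WT-FOXA1 line fared in the C258A-FOXA1 line. The 12130 regions lost there held a peak in 64.1% and 67.8% of cases in the C258A DMSO libraries, in 43.8% in WX-02-23 1 and in 64.9% in WX-02-23 2. WX-02-23 1 thus lay below both DMSO libraries and WX-02-23 2 between them. Without WX-02-23 1 the change was only −1.02 points, against −22.2 without WX-02-23 2. With the 8 lists at one length the lost regions of the WT-FOXA1 line were called anew, and these 3976 regions held a peak in 58.4% and 59.6% of cases with DMSO and 43.2% and 47.0% with WX-02-23, without overlap. The 1333 regions gained in the WT-FOXA1 line held a peak in 24.9% and 29.6% with DMSO and in 38.4% and 52.8% with WX-02-23, without overlap. For the 3198 WT gained regions called at one length the values were 26.1% and 26.3% against 39.5% and 40.7%, also without overlap. These shares were not tested, since an exact permutation test of 2 libraries against 2 cannot reach 0.05.

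Overlap of the region classes between the lines was partial. Of the C258A lost regions, 737 (25.2%) met a region lost in the WT-FOXA1 line, which is 6.08% of the lost regions there. The background is high, since 9.62% of all C258A regions met one. Of the C258A gained regions, 161 (6.23%) met a WT gained region, or 12.1% of those, against 0.786% of all C258A regions. Regions that changed in opposite ways were 198 gained regions (7.67%) that met a WT lost one and 12 lost regions (0.411%) that met a WT gained one. At one length, 358 lost regions (15.4%, background 4.03%) and 280 gained regions (13.4%, background 2.34%) met a region of the same class, and 77 and 35 met one of the opposite class.

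Parental cells gave a stricter look-up, in which all 3 WX-02-23 and no DMSO library held a peak, or the reverse. Of the C258A gained regions 190 (7.36%) were also gained there, against 1.07% of all C258A regions, and of the lost regions 116 (3.97%) were also lost, against 0.695%. By the same rule WX-02-43, compared with the same DMSO libraries, gave 11 gained (0.426%, background 0.182%) and 11 lost regions (0.376%, background 0.181%). Regions that changed alike in all 3 kinds of cells numbered 38 gained (1.47%, against 0.0850% of all regions) and 50 lost (1.71%, against 0.257%). No parental DMSO or WX-02-23 library had a peak at 28.6% of the gained regions and 21.9% of the lost ones, beside 22.2% of all regions.

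The strongest gained regions, positions given in build hg19, were mostly open in parental cells with WX-02-23. The first, at chr14:43410364-43410935, had an authors' fold enrichment of 12.7 and 14.1 in the 2 C258A WX-02-23 lists and a percentile of 78.2 and 78.7. Both WT-FOXA1 WX-02-23 libraries held it and neither DMSO library did, yet of 3 parental WX-02-23 libraries only 1 held it. The second, at chr7:49197929-49198469, had a fold of 12.2 and 12.03 and a peak in all parental libraries and in 1 of 2 WT-FOXA1 DMSO libraries. A region at chr7:18689020-18689457, with a fold of 10.4 and 12.02, was held by both WT-FOXA1 WX-02-23 libraries, neither WT-FOXA1 DMSO library, and by 2 of 3 parental DMSO and 3 of 3 parental WX-02-23 libraries. The region at chr7:52235026-52235440, with a fold of 9.09 and 12.3, was the one of the 8 named gained regions with no peak in the WT-FOXA1 line after WX-02-23, although all 3 parental WX-02-23 and no parental DMSO libraries held it. Of these 8 regions, 7 were held by both WT-FOXA1 WX-02-23 libraries and 7 by all 3 parental ones. No peak was present at 5 in WT-FOXA1 DMSO libraries and at 3 in parental DMSO libraries. All 3 parental DMSO libraries held 3 of the 8, and all 3 WX-02-43 libraries held 5. These 8 were picked for their strength and do not stand for the class. Of all 2583 gained regions, the WT-FOXA1 WX-02-23 libraries held 36.1% and 30.0%, and the parental ones 61.1%, 59.6% and 59.6%.

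The strongest lost regions were open in most other groups. The first, at chr15:56275952-56276420, had a fold enrichment of 11.4 and 10.4 in the C258A DMSO lists. Next came chr1:244417338-244417691, with 10.6 and 10.7, and chr1:27611194-27611487, with 11.1 and 10.2. All 8 named lost regions were held by both WT-FOXA1 DMSO libraries, and 7 of the 8 by neither WT-FOXA1 WX-02-23 library. The exception was chr1:27611194-27611487, held by both. All 8 were held by all 3 parental WX-02-23 libraries and by both C258A PladB libraries. Of all lost regions, these parental libraries held 57.1%, 51.3% and 54.3%, and these PladB libraries 38.1% and 42.5%. These 8 were picked for their strength and do not stand for the class: of all 2922 lost regions, 737 met a region lost in the WT-FOXA1 line, 116 were lost in parental cells by the 3 of 3 rule, and the parental share with a peak fell by 8.92 points.

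Among kept regions, the largest rise in rank was at chr8:97961848-97962328, from percentiles of 22.9 and 8.51 with DMSO to 79.6 and 85.1 with WX-02-23. Its fold enrichment went from 6.86 and 5.90 to 12.8 and 16.2. The next rise, at chr1:72955500-72955842, went from 14.0 and 0.573 to 70.4 and 75.3. Every parental library held both regions. The largest fall was at chr12:46272439-46272826, from percentiles of 72.8 and 70.1 to 6.32 and 20.0, with a fold from 12.6 and 12.1 to 4.85 and 6.78. The fallen regions at chr3:140947262-140947601 and chr5:83387268-83387654 were held by both WT-FOXA1 DMSO libraries and by neither WT-FOXA1 WX-02-23 library. In each of these regions the 2 treated values lay apart from the 2 control values, as the choice of the regions requires. Genes, promoters, motifs and the prostate marker loci at these positions were not analysed here.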

How the data were processed

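Chromatin accessibility was profiled by ATAC-seq using a commercial kit, per the labels. The submitters' processing notes name Bowtie2, MACS2 and build hg19. Versions, options, removal of duplicates and read shifting were not given in the sources consulted. Each library has its own deposited list of peaks. For each peak the authors deposited a score, a fold enrichment over local background (a ratio), the −log10 p-value, the −log10 q-value and the summit offset. The lowest deposited −log10 q was 2.00 to 2.15 per list and the narrowest peak 150 bp. A region without a peak may still be open below that limit.

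Overlapping or touching peaks were merged. Percentiles and strength classes rank the −log10 p-value within a list, by the strongest peak in a region. Relative depth was the background that most often matched both the deposited fold and p-value of low-fold peaks, under a Poisson model. In the C258A lists compared, 20.7% to 25.2% of peaks fitted that background. Relative depth ran from 0.546 to 1.502 reads per base over the 29 lists. It depends on read extension, which was not given. Peaks on other sequences, 2 to 3 per C258A list, were left out.

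Exact two-sided permutation tests within line compared the shares, adjusted by Benjamini-Hochberg over 4 look-up tests and, separately, 2 line tests. Regions were named by rule: the 8 gained and 8 lost with the highest mean percentile in both settings, the 4 largest rises and 4 largest falls among kept regions that did not overlap, and the widest of each class. Examples were given in the text from these. The alternatives were equal length, the strongest 50000 peaks, a q-value of 1e-05 or below, peaks covering 50% of a region, summits extended by 100 bp each way, peaks up to 200 bp apart merged, ranks by fold, a replicate block and leaving out each library. The region classes, tests, rules and comparisons were chosen with earlier results of these data known, and the gained minus lost contrast, the regions chosen at equal length the follow-up of rank changes and the widths of each WX-02-23 list alone were added after the data were seen. Scripts were tested on simulated data, and bedtools 2.31.1 served as a check of the merging. Python 3.11.15 was used with pandas 2.3.3, numpy 2.4.6, scipy 1.17.1 and matplotlib 3.10.9.

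Promoter and motif shares, nearest genes and marker loci were planned but not analysed here, since no hg19 reference was used, and no sequences are printed.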

Additional observations from a re-analysis of the deposited data

Results flagged for a closer look

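The share of C258A gained regions with a peak moved in opposite directions in 2 kinds of cells under the same treatment. WX-02-23 minus DMSO was 15.8 percentage points in parental cells and −3.95 points in the WT-FOXA1 line. The difference between these values was not tested. Every parental WX-02-23 library lay above every parental DMSO library, and in the WT-FOXA1 line the values overlapped. The WT-FOXA1 WX-02-23 lists held 65324 ± 3524 peaks against 86575 ± 2214 with DMSO (SD, n = 2 each). With all looked-up lists at one length, the shares rose in both kinds of cells, from 21.0% ± 0.54 to 36.2% ± 0.35 (SD, n = 3 each) in parental cells and from 14.2% ± 0.22 to 30.1% ± 0.25 (SD, n = 2 each) in the WT-FOXA1 line. The cut took more peaks from the WT-FOXA1 DMSO lists than from the WX-02-23 lists of that line. The rise there is therefore one among the strongest peaks of each list.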

How the results depend on the processing

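Of 238 alternative values over 21 results, 194 counted as unchanged, 38 moved beyond set limits, 3 reversed, 2 came to pass the threshold and 1 no longer did. For differences, unchanged meant the same direction or side of the threshold and not the same size. The change in the C258A lists at lost regions of the WT-FOXA1 line was −11.6 points. It thus counted as unchanged at −1.02 and at −22.2 points. The strongest 50000 peaks gave 1673 gained, 1758 lost and 36825 kept regions, with median peak widths of 293, 290.5 and 446 bp. Median peak widths of gained and lost regions were 219 and 216 bp at equal length and 218.5 and 210.5 bp at a q-value of 1e-05 or below. With 50% of a region covered the lost regions had a width of 211 bp and 58.9% in the weakest 25%, and with summit windows 59.6%. Looked-up lists at one length gave 15.6 and −11.1 points at the gained and lost regions. The line difference in median peak width was 40.5 bp with 8 lists at one length (exact permutation, adjusted p = 0.556).

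Leaving out 1 library at a time gave 4618 to 11791 gained, 4271 to 10335 lost and 61131 to 66914 kept regions, with median widths of 173 to 210, 178 to 215 and 342 to 345 bp. The share in the weakest 25% ran from 57.5% to 81.0% for gained and from 51.7% to 76.2% for lost regions. Kept regions that rose in rank numbered 9157 to 10208 and those that fell 9273 to 10718. The look-up difference ran from −2.04 to 7.45 points at gained regions, reversing to −0.884 without C258A DMSO 1 and −2.04 without DMSO 2, and from −26.1 to −16.4 at lost regions. The gained minus lost contrast ran from 14.9 to 31.2 points. The WT-FOXA1 regions looked up in the C258A lists changed by 10.9 to 25.6 points if gained and by −22.2 to −1.02 if lost. The line difference ran from 12181 to 28194 peaks in number and from −3 bp, without C258A WX-02-23 2, to 7 bp in median width. The cause of the moves was not tested, except that fewer lists make gained and lost regions easier to call by construction.

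Replicate numbers showed no pairing in region ranks: at equal list length, deviations of same-numbered libraries correlated at −0.0185 to 0.0152. Ranks at equal length cannot show pairing in list length or depth. With the replicate number as a block the gained minus lost difference stayed 30.7 points, with an exact permutation p of 0.0625, the smallest that block allows, and the block changed no other call. Each list holds no peak below its own limit, which limits what a missing peak shows at a single weak region.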
